A study of Mus musculus with 9 samples.

Results

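The genes described here are 9 mouse cytochrome P450 genes of the Cyp2 family, Cyp2d9, Cyp2d10, Cyp2d11, Cyp2d22, Cyp2d26, Cyp2d40, Cyp2j5, Cyp2j6 and Cyp2u1, chosen by name in the table of gene levels. Of the 9 names, 7 were found among the 52151 entries of that table, and 6 of these entries hold a known transcript and were tested together with all other such entries. Liver RNA was sequenced from 3 pair-fed (PF) libraries, 3 alcohol-fed (AF) libraries and 3 libraries of alcohol-fed mice that also received MNA, and the 3 groups are compared for each gene. The PF mice received an isocaloric liquid control diet and the AF mice the Lieber-DeCarli diet with alcohol, for 5 weeks. The third group had the same alcohol diet with daily intraperitoneal MNA at 50 mg/kg, a compound that the labels do not spell out. The mice were male. The labels give an age of 8 weeks and the strain C57BL/6 for PF and AF, but C57BL/7, C57BL/8 and C57BL/9 for the MNA libraries. The labels name no animal for a library, so the p-values measure the spread between libraries. Mice given MNA on the control diet were not analysed here.

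Cytochrome P450 enzymes are heme proteins of the endoplasmic reticulum that insert an oxygen atom into their substrates, with electrons passed on by the reductase Por. The liver is the main site of the Cyp2d enzymes, which oxidise many drugs and also steroids. Cyp2d9 hydroxylates testosterone and is known as a gene that male mouse liver expresses more than female liver. Cyp2d22 is regarded as the mouse gene most like human CYP2D6. The Cyp2j enzymes turn arachidonic acid and related fatty acids into epoxides, and Cyp2u1 hydroxylates long-chain fatty acids, arachidonic acid among them.

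The Cyp2d genes lie in a cluster on chromosome 15, and some of them are close copies of each other, which limits how far their levels can be told apart. All positions refer to the mouse build GRCm38 (GENCODE M21). Cyp2d9 lies at chr15:82433437-82456845 on the forward strand. Cyp2d22 (chr15:82370527-82380260), Cyp2d11 (chr15:82389154-82394022), Cyp2d10 (chr15:82402846-82407195), Cyp2d40 (chr15:82759833-82764183) and Cyp2d26 (chr15:82790101-82794294) lie on the reverse strand. Cyp2j6 (chr4:96516138-96553661) and Cyp2j5 (chr4:96628773-96664154) lie on the reverse strand of chromosome 4, and Cyp2u1 (chr3:131288441-131303227) on that of chromosome 3. To show the feature that all 9 genes share, the 30 coding bases for the heme-binding stretch of each enzyme are given, read from a GENCODE transcript, with the codon of the cysteine that holds the heme iron in capitals.
Cyp2d9: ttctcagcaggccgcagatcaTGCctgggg
Cyp2d22: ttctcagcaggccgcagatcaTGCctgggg
Cyp2d26: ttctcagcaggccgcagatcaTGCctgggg
Cyp2d10: ttctcagcaggccgcagatcaTGCctgggt
Cyp2d11: ttctcagcaggacacagatcaTGCctgggg
Cyp2d40: ttctcagcaggccgtcgagcaTGTctgggt
Cyp2j6: ttctcaatgggaaagcgagctTGCctggga
Cyp2j5: ttctcaatgggaaaaagagctTGTcttgga
Cyp2u1: tttgggatagggaagcgggtgTGTatggga
The stretches of Cyp2d9, Cyp2d22 and Cyp2d26 are identical. Cyp2d10 differs from them at 1 base, Cyp2d11 at 2, Cyp2d40 at 5, Cyp2j6 at 11, Cyp2j5 at 12 and Cyp2u1 at 18.

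Over the whole coding sequence, Cyp2d9 matched Cyp2d10 at 92.5% and Cyp2d11 at 93.3% of aligned bases, and Cyp2d10 matched Cyp2d11 at 94.7%. Cyp2d9 matched Cyp2d22 at 78.7%, and the pairs of Cyp2d members ranged from 60.0% with Cyp2d40 included, or 78.3% without it, to 94.7%. Cyp2u1 stood farthest from the other full-length sequences, at 54.9% to 57.2%. The longest unbroken run that Cyp2d9 shares with Cyp2d10 measured 164 bases, coding positions 318 to 481 in exons 2 and 3 of Cyp2d9 (chr15:82453726-82454157, with the intron between), and is shown because a read of 150 bases inside it fits both genes.
Cyp2d9 and Cyp2d10: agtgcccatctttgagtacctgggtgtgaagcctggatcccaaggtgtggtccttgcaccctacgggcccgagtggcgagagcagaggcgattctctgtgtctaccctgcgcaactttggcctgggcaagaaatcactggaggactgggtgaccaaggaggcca
Of all stretches of 150 bases in the Cyp2d9 transcript, 1.54% occurred without a mismatch in a transcript of another gene, against 6.40% for Cyp2d10, 5.62% for Cyp2d11 and 0% for the other members. With stretches of 50 bases the share was 29.0% for Cyp2d9, 40.5% for Cyp2d10, 37.2% for Cyp2d11, 24.1% for Cyp2d40, 10.5% for Cyp2d26, 6.14% for Cyp2d22, 3.14% for Cyp2u1, 0.422% for Cyp2j6 and 0.174% for Cyp2j5. The levels of all Cyp2d members are uncertain to the extent that the authors' assembly divided such reads.

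The table joins neighbouring Cyp2d genes into shared entries. The entry named Cyp2d10 holds known transcripts of Cyp2d10, Cyp2d11 and Cyp2d22, and the entry named Cyp2d26 those of Cyp2d26, Cyp2d40 and Cyp2d41-ps. Cyp2d11 and Cyp2d40 have no row of their own. The row named Cyp2d22 is 1 transcript assembled by the authors without a known one, so that it was left out of the main test. The entry named Cyp2j6 also holds a Cyp2j8 transcript, while Cyp2d9, Cyp2j5 and Cyp2u1 have an entry each. An entry's value is not the sum of its transcripts: among 841 entries with several transcripts that all have values in the lncRNA table, the median ratio of the gene value to that sum was 0.708 over the 1168 values of at least 1 FPKM.

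Levels are FPKM, the fragments of a transcript scaled to its length and to the fragments of the library, and can be set side by side between genes because they are scaled to length. The libraries held between 57800660 and 82179248 reads. Hepatocyte markers such as Alb, Apob and Ttr were high in every library (summed FPKM of the 7 markers between 16387 and 23592). Of the 7 neutrophil and lymphocyte markers, Ms4a1 and Ly6g stayed at or under 0.1 FPKM. AF replicate 3 and MNA replicate 1 stood apart, with a summed FPKM of assembled intron transcripts of 9433 and 8934, against 2477 to 4937 in the other libraries. Differences were tested with limma on log2(FPKM + 1), a scale that understates the change of low genes. A gene was called upregulated or downregulated when the unadjusted p was under 0.05 and the ratio of the mean FPKMs of the groups, on the log2 scale, was above 1 or below -1. The study's methods give these cut-offs for lncRNAs analysed with the Ballgown package. Here they were applied to gene entries with a p-value from limma, so the calls are not those of the study's own tool. The p-values printed are those adjusted over all tested genes, so that a gene can be called while its adjusted p is above 0.05.

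In PF liver the members spanned from Cyp2d9, the 46th highest of the 26345 named entries with a known transcript, to Cyp2j6, the 3628th. The order of the PF means was Cyp2d9 at 580.3 ± 118 FPKM (SD, n = 3), Cyp2j5 at 150.7 ± 15.8, the Cyp2d26 entry at 83.5 ± 7.95, the Cyp2d10 entry at 66.7 ± 8.19, Cyp2u1 at 11.4 ± 1.68 and the Cyp2j6 entry at 5.06 ± 0.390. The row named Cyp2d22 lay lowest, at 1.05 ± 0.367 FPKM. Each step of this order was free of overlap between the PF libraries. In AF liver the order kept Cyp2d9, Cyp2j5, Cyp2d26 and Cyp2d10 on top, while Cyp2u1 (2.10 ± 0.797 FPKM, n = 3) lay below the Cyp2j6 entry (5.71 ± 1.48), and the Cyp2d26 and Cyp2d10 libraries overlapped.

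**Figure D1:**
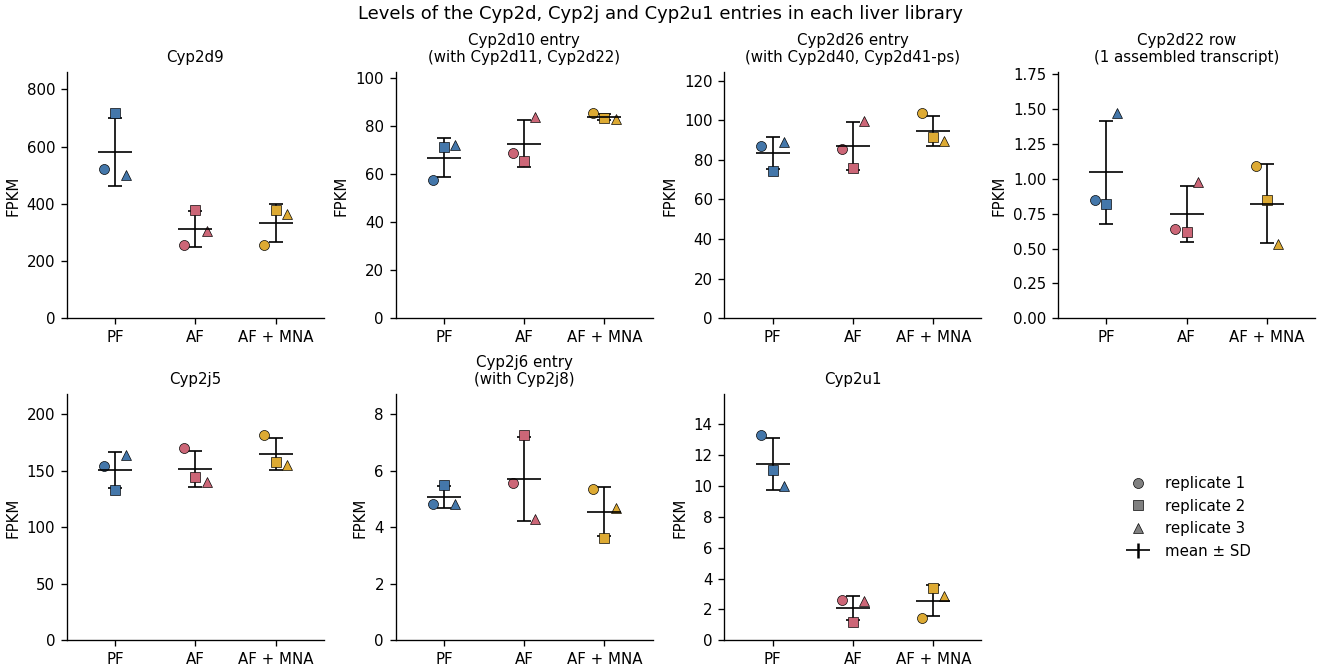
FPKM (vertical axes, from 0) of the 7 rows named for a member in PF, AF and AF with MNA, 1 point per library with a symbol for each replicate number, and the mean ± SD of each group as the horizontal line and bar. The Cyp2d9 and Cyp2u1 points of both alcohol groups lie below all PF points, while those of Cyp2j5 and Cyp2j6 overlap.

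The comparison of AF with PF asks which of these genes differ after alcohol feeding. Cyp2u1 was downregulated 5.45-fold, the only call among the 6 tested members, while 4.3% of all 12268 tested genes were called in either direction and 2.35% downward. Cyp2d9 was lower in every AF library without reaching the size that the threshold asks for. The Cyp2d10, Cyp2d26, Cyp2j5 and Cyp2j6 entries showed small differences with intervals that include 0. The AF and PF values stood clear of each other for 2 of the 6 members, Cyp2d9 and Cyp2u1, against 18.3% of all tested genes. The same 2 had an unadjusted p under 0.05, against 11.7% of all tested genes, and for Cyp2u1 the adjusted p was under 0.05 too, against 0.326%. The median log2 ratio of the 6 members was 0.03, and that of all tested genes was -0.03.

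Cyp2u1, the fatty acid hydroxylase, read 13.29, 11.02 and 10 FPKM in PF against 2.59, 1.18 and 2.53 FPKM in AF. Each AF library thus lay below all PF libraries. The log2 ratio of the means was -2.45, and the difference on the log2(FPKM + 1) scale was -2.03 with a 95% interval of -2.58 to -1.49 (limma, adjusted p = 0.0283, the 28th smallest p of all tested genes). Without AF replicate 3 the log2 ratio was -2.60. Whether the adjusted p was under 0.05 depended on single libraries: it was 0.021 without AF replicate 2 and between 0.0668 and 0.106 when any other single library was left out.

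Cyp2d9, the testosterone hydroxylase, read 523.2, 716.1 and 501.6 FPKM in PF against 254.8, 379.9 and 304.5 FPKM in AF. The highest AF library thus lay under the lowest PF library. The mean was 1.85-fold lower in AF (log2 ratio -0.89, 95% interval of the log2(FPKM + 1) difference -1.43 to -0.35, limma, adjusted p = 0.229). Without AF replicate 2, the highest AF library, the log2 ratio was -1.05 and Cyp2d9 passed the threshold. A limit of the value is that the reads shared with other Cyp2d genes cannot be assigned here.

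The 2 shared Cyp2d entries did not follow Cyp2d9. The entry of Cyp2d10, Cyp2d11 and Cyp2d22 read 57.25, 70.96 and 71.86 FPKM in PF against 68.68, 65.53 and 83.57 FPKM in AF. The groups overlapped, with a difference of 0.12 on the log2(FPKM + 1) scale and an interval of -0.27 to 0.51 (limma, adjusted p = 0.819). The entry of Cyp2d26, Cyp2d40 and Cyp2d41-ps read 87.02, 74.44 and 89.16 FPKM in PF against 85.69, 75.76 and 99.67 FPKM in AF. Here too the groups overlapped (difference 0.05, interval -0.33 to 0.43, limma, adjusted p = 0.928). Opposite changes of genes within a shared entry would not be seen in these values. The row named Cyp2d22 read 0.85, 0.82 and 1.47 FPKM in PF against 0.64, 0.62 and 0.98 FPKM in AF, and did not pass the test when all entries were fitted (limma, adjusted p = 0.758).

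Cyp2j5, an arachidonic acid epoxygenase abundant in liver and kidney, read 154.2, 133.4 and 164.3 FPKM in PF against 169.9, 144.7 and 139.8 FPKM in AF. The ranges lay over each other, with a log2 ratio of 0.0078 and an interval of the difference of -0.36 to 0.38 on the log2(FPKM + 1) scale (limma, adjusted p = 0.991). Cyp2j6, a related epoxygenase, read 4.83, 5.51 and 4.84 FPKM in PF against 5.58, 7.25 and 4.29 FPKM in AF. Both the lowest and the highest of these values came from AF libraries (difference 0.12, interval -0.31 to 0.56, limma, adjusted p = 0.834).

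The comparison of AF with MNA against AF asks whether these genes differ when MNA is given on top of alcohol. None of the 6 tested members passed the threshold or an unadjusted p of 0.05 (limma), while 1.98% of 12214 tested genes were called and 5.22% reached that p, and for none of the 6 did the libraries of the groups separate, against 10.1% of the tested genes. Cyp2u1 read 1.43, 3.37 and 2.90 FPKM in the MNA group, a range that holds all but the lowest AF value. Its difference from AF was 0.19 with an interval of -0.51 to 0.90 (limma, adjusted p = 0.988). Cyp2d9 read 257.5, 380.2 and 362.9 FPKM with MNA, nearly the same range as in AF (difference 0.09, interval -0.46 to 0.64, limma, adjusted p = 0.999). A difference within these intervals was not detectable with 3 libraries a group.

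The other 4 tested entries differed by at most 1.25-fold between the alcohol groups. The Cyp2d10 entry read 85.10, 83.23 and 82.83 FPKM with MNA, 1.15-fold above AF (limma, adjusted p = 0.966). The Cyp2d26 entry read 103.5, 91.33 and 89.40 FPKM (1.09-fold above AF, limma, adjusted p = 0.980). Cyp2j5 read 181.3, 157.7 and 155.5 FPKM (1.09-fold above AF, limma, adjusted p = 0.980). Cyp2j6 read 5.35, 3.62 and 4.69 FPKM, 1.25-fold below AF (limma, adjusted p = 0.970). The row named Cyp2d22 read 1.09, 0.85 and 0.53 FPKM.

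Against PF, the MNA group showed the same pair of lower genes; the comparison uses the PF libraries of the AF comparison and is no separate evidence. Cyp2u1 was downregulated 4.46-fold (log2 ratio -2.16, difference -1.84 with an interval of -2.42 to -1.25, limma, adjusted p = 0.0516), the only call among the 6 members, while 3.89% of 12276 tested genes were called and 1.95% downward. An unadjusted p under 0.05 was reached by 3 members, Cyp2u1, Cyp2d9 and the Cyp2d10 entry, against 14.5% of the tested genes. For the Cyp2d10 entry this held in 10 of 16 alternatives, and not without MNA replicate 1, MNA replicate 2, MNA replicate 3 or PF replicate 1, with the replicate number as a block, or without moderation and with a library-size covariate. For Cyp2u1 without MNA replicate 1 the log2 ratio was -1.87 and the adjusted p from limma 0.0383, against 0.0774 to 0.140 when any other library was left out. Cyp2d9 was 1.74-fold lower and did not reach the fold threshold (log2 ratio -0.80, difference -0.80 with an interval of -1.34 to -0.25, limma, adjusted p = 0.229). The Cyp2d10 entry lay above PF in all MNA libraries by a small amount, 1.26-fold (difference 0.33, interval 0.023 to 0.64, limma, adjusted p = 0.322). The lowest MNA library of the Cyp2d26 entry, at 89.40 FPKM, lay just above the highest PF library at 89.16 FPKM (1.13-fold, limma, adjusted p = 0.574). Cyp2j5 (difference 0.13, interval -0.20 to 0.46, limma, adjusted p = 0.712) and Cyp2j6 (difference -0.14, interval -0.48 to 0.21, limma, adjusted p = 0.709) overlapped with PF. Together with Cyp2d9 and Cyp2u1, 4 of the 6 members thus had no overlap with PF, against 21.4% of the tested genes.

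**Figure D2:**
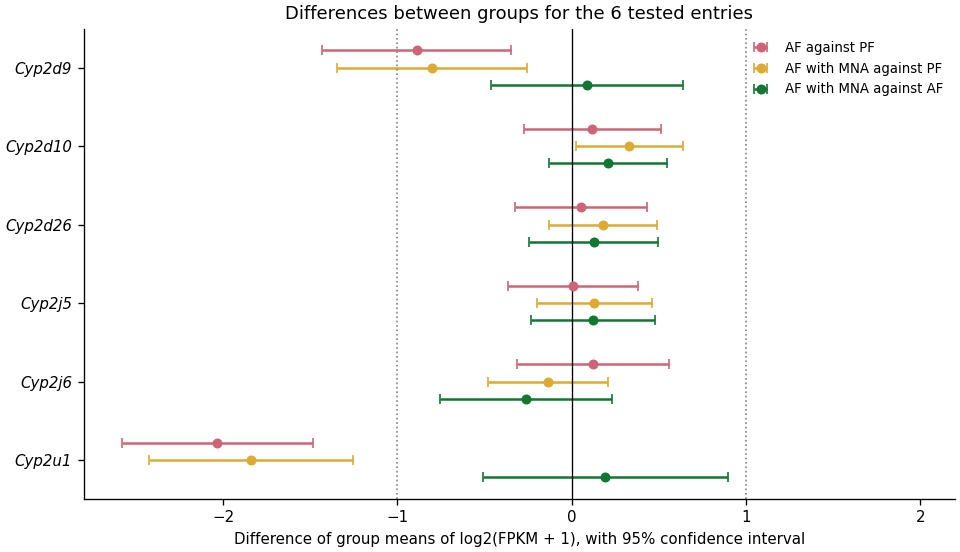
Differences of group means on the log2(FPKM + 1) scale (horizontal axis) with 95% confidence intervals from limma for the 6 tested entries, coloured by comparison; the dotted lines mark -1 and 1. The intervals of Cyp2u1 against PF lie wholly below -1, those of Cyp2d9 against PF lie below 0, and all intervals of AF with MNA against AF include 0.

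By the entry values, Cyp2d9 made up most of the summed level of the Cyp2d cluster. The Cyp2d9 entry holds 1 transcript, while the Cyp2d10 entry holds 3 known and 6 assembled ones and the Cyp2d26 entry 3 and 3. Since the value of an entry with several transcripts can lie below their sum, the shares of Cyp2d9 may be overstated, which was not tested. The sum of the 6 entries with a known Cyp2d transcript was 730.4, 931.5 and 744.2 FPKM in PF, 437.9, 539.0 and 551.7 FPKM in AF, and 503.6, 609.4 and 592.7 FPKM with MNA. Every PF library thus lay above every alcohol-fed library. Cyp2d9 accounted for 67.4% to 76.9% of the sum in PF, for 55.2% to 70.5% in AF and for 51.1% to 62.4% with MNA. Without Cyp2d9 the sum was 207.3 to 242.6 FPKM in PF, 159.2 to 247.3 FPKM in AF and 229.2 to 246.1 FPKM with MNA, and the groups overlapped.

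**Figure D3:**
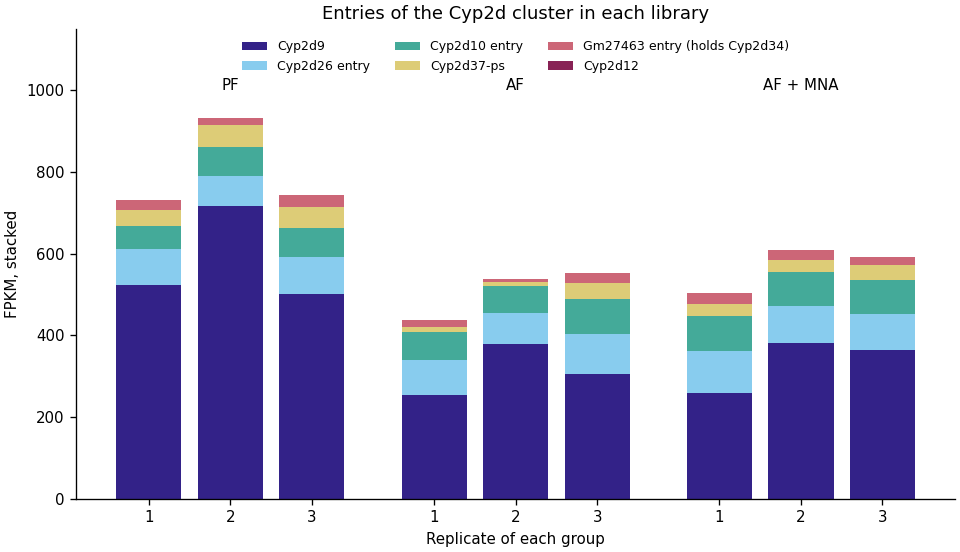
Stacked FPKM (vertical axis, from 0) of the 6 entries with a known Cyp2d transcript, 1 bar per library, in the order PF, AF and AF with MNA. The Cyp2d9 part shrinks from 501.6 FPKM or more in PF to 380.2 FPKM or less in the alcohol-fed libraries, while the Cyp2d26 and Cyp2d10 parts stay between 57.25 and 103.5 FPKM.

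Other entries of the same gene groups were counted by name. Cyp2d37-ps, a Cyp2d pseudogene, read 39.55, 52.70 and 50.96 FPKM in PF, 10.85, 8.77 and 40.30 FPKM in AF and 29.81, 30.15 and 35.87 FPKM with MNA. It was called downregulated in AF (log2 ratio -1.26, limma, adjusted p = 0.361) although AF replicate 3 lay within the PF range, and without that library the log2 ratio was -2.28. Against AF, MNA gave a log2 ratio of 0.68 (limma, adjusted p = 0.961), which became a call without AF replicate 3, at 1.703. The entry Gm27463, which holds Cyp2d34, lay between 8.69 and 30.00 FPKM with overlapping groups, and Cyp2d12 stayed at or under 0.64 FPKM. In the Cyp2j group, Cyp2j13 stayed at or under 0.02 FPKM.

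Cyp2j9 went the other way from Cyp2u1. It read 1.37, 1.09 and 0.86 FPKM in PF against 2.22, 3.16 and 2.35 FPKM in AF, and was upregulated 2.33-fold (log2 ratio 1.22, limma, adjusted p = 0.145). With MNA it read 1.93, 1.32 and 1.16 FPKM, below every AF library, but the log2 ratio of -0.81 missed the threshold (limma, adjusted p = 0.940). Without MNA replicate 1 the log2 ratio was -1.06 and passed it. The MNA and PF libraries of Cyp2j9 overlapped (limma, adjusted p = 0.573).

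A long non-coding RNA gene, 4930534D22Rik (chr3:131302643-131316661, forward strand, 2 exons), overlaps the beginning of Cyp2u1 by 585 bases on the opposite strand. It read 2.21, 1.60 and 1.26 FPKM in PF, 0.24, 0.18 and 0.56 FPKM in AF and 0.13, 0.63 and 0.58 FPKM with MNA. As for Cyp2u1, all alcohol-fed libraries lay below all PF libraries. It was called downregulated in AF (log2 ratio -2.37, limma, adjusted p = 0.110) and with MNA against PF (log2 ratio -1.92, limma, adjusted p = 0.152). For this lncRNA gene the log2 ratio was -3.01 in AF without AF replicate 3, and -1.48 with MNA against PF without MNA replicate 1. Its mean was under 0.5 FPKM in both alcohol groups, so that it passed the minimum through its PF level and was not tested with MNA against AF. The libraries were made to keep the strand, but how strand was used in the authors' assembly is not given in the sources used here, so that reads of the overlap may be shared. Hadh, the neighbour on the other side of Cyp2u1, read 18.86 to 32.45 FPKM in PF and 14.68 to 24.60 FPKM in AF, with overlap (limma, adjusted p = 0.544).

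**Figure D4:**
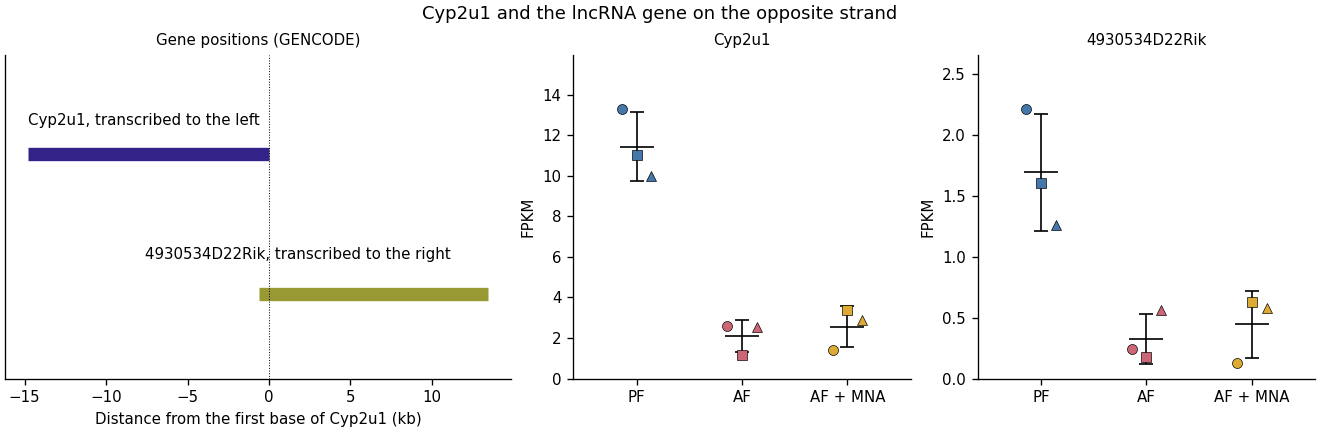
Left, the positions of Cyp2u1 and 4930534D22Rik as bars along the distance from the first base of Cyp2u1 in kb; middle and right, their FPKM (vertical axes, from 0) per library in PF, AF and AF with MNA, with the mean ± SD. Both genes lie lower in all 6 alcohol-fed libraries than in the 3 PF libraries.

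Genes whose libraries ran most like a member's were taken by Pearson's r of log2(FPKM + 1) over all 9 libraries, among 12252 genes. The values are a description: the 9 libraries share their groups, so that genes that differ between PF and alcohol feeding resemble each other. For Cyp2u1 they were Aox3 (0.984), Olig1 (0.983) and Tiam2 (0.972). For Cyp2d9 they were Serpina1e (0.986), C6 (0.974) and Efna5 (0.972). The Cyp2d10 entry ran most like Tmem138 (0.989), Kif5a (0.967) and Olfr1122 (0.966), and the Cyp2d26 entry like AK157302 (0.951), Cyp2c38 (0.948) and Gsta3 (0.937). For Cyp2j5 they were Cd207 (0.920), Lsm2 (0.904) and Khk (0.898), and for Cyp2j6 Ribc1 (0.965), G3bp2 (0.933) and Slc38a2 (0.927).

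The electron donors, heme-binding partners and epoxide hydrolases that work with these enzymes were counted next. In AF against PF, among 8 tested genes of the epoxide hydrolases and P450 partner proteins, 1 was upregulated and 1 downregulated, with a median log2 ratio of 0.05, while 1.95% of all tested genes were upregulated and 2.35% downregulated. Without AF replicate 3, 2 were upregulated and 1 downregulated, and the median was -0.06. Ephx1, the microsomal epoxide hydrolase, rose from 66.3 to 194.7 FPKM on average (log2 ratio 1.55, limma, adjusted p = 0.117). Pgrmc2, a heme-binding membrane protein, fell from 14.4 to 4.61 FPKM (log2 ratio -1.64, limma, adjusted p = 0.359). With MNA against PF, 2 genes of this list were upregulated, Ephx1 (log2 ratio 1.63) and Pgrmc1 (log2 ratio 1.73), and 1, Pgrmc2 (log2 ratio -1.69), was downregulated, with a median of 0.58 against -0.02 over all tested genes, of which 1.94% were upregulated and 1.95% downregulated. Without MNA replicate 1, 1 gene of the list was upregulated and 0 downregulated. None of the 8 was called with MNA against AF, and 1 was upregulated without AF replicate 3.

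Among 15 tested genes for arachidonic acid release and its other branches, 3 were upregulated in AF and 0 downregulated, with a median log2 ratio of -0.03, beside 1.95% upregulated among all tested genes. Another 9 of the 24 genes found in the table were too low to be tested, and Cbr3 and Ptgr1, under 0.5 FPKM in PF, passed the minimum through their AF level. Cbr3, a carbonyl reductase, rose from 0.14 to 3.52 FPKM (limma, adjusted p = 0.0397). Ltc4s, which makes leukotriene C4, rose from 0.567 to 1.96 FPKM (log2 ratio 1.79, limma, adjusted p = 0.190), and Ptgr1, which inactivates prostaglandins and leukotrienes, from 0.36 to 0.847 FPKM (log2 ratio 1.23, limma, adjusted p = 0.293). With MNA against PF, 2 of 15 tested genes of the list, Cbr3 and Ltc4s, were called upregulated (log2 ratios 4.08 and 1.44) and 0 downregulated. Among all tested genes these shares were 1.94% and 1.95%. Here Cbr3 passed the minimum through its MNA level. Without MNA replicate 1, 2 of 14 were upregulated and 1 downregulated, beside 246 and 299 of 12231 tested genes. No gene of the list was called with MNA against AF.

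Among 19 tested transcription factors and genes of growth hormone signalling, Cux2 was upregulated (0.14 to 1.36 FPKM, limma, adjusted p = 0.357) and Ghr, the growth hormone receptor, downregulated in AF (14.6 to 7.14 FPKM, log2 ratio -1.03, limma, adjusted p = 0.310). Cux2, under 0.5 FPKM in PF, passed the minimum through its AF level. These are 1 up and 1 down of 19, beside 1.95% upregulated and 2.35% downregulated among all tested genes. The median log2 ratio of the list was -0.16, and without AF replicate 3, 2 of its genes were upregulated. With MNA against PF, Nr1i3, the nuclear receptor CAR, was upregulated (log2 ratio 1.21) and Bcl6, a repressor, downregulated (log2 ratio -2.11), beside 1.94% and 1.95% of all tested genes.

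Since Cyp2d9 is a gene of male liver, lists of other genes known for a sex bias in mouse liver were set beside it. Of 11 tested male-biased genes, 9 were downregulated in AF and 0 upregulated, beside 2.35% downregulated among all tested genes, with a median log2 ratio of -2.65, more negative than the -0.89 of Cyp2d9. The 5 with the largest log2 ratios were Hsd3b5 (17.3 to 0.12 FPKM), Mup21 (75 to 0.95 FPKM), Elovl3 (40.7 to 2.93 FPKM), Cyp4a12b (24.3 to 2.05 FPKM) and Cyp4a12a (79.4 to 9.05 FPKM). Hsd3b5, under 0.5 FPKM in AF, passed the minimum through its PF level. Of 8 tested female-biased genes, 6 were upregulated and 0 downregulated in AF, beside 1.95% upregulated among all tested genes, among them Cyp2b13 (0.00333 to 5.87 FPKM), Cyp2b9 (0.06 to 13.6 FPKM), Cyp2a4 (1.41 to 27.7 FPKM) and Cux2, which is also in the list of transcription factors. Only 8 of the 17 female-biased genes in the table were tested, and Cyp2b13, Cyp2b9 and Cux2, under 0.5 FPKM in PF, passed the minimum through their AF level. Without AF replicate 3, 9 of 11 tested male-biased genes were downregulated and 5 of 7 tested female-biased genes upregulated. All 9 libraries held Xist at 0.06 FPKM or less and the Y-linked genes Kdm5d and Uty at 1.06 FPKM or more, as male liver does.

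With MNA against PF, 8 of 11 male-biased genes were downregulated, beside 1.95% of all tested genes (median log2 ratio -1.90), and 4 of 8 female-biased genes upregulated, Cyp2b13, Cyp2b9, Cyp2a4 and Acot3, beside 1.94% of all tested genes (median log2 ratio 3.46). Without MNA replicate 1 the counts were 7 of 11 and 4 of 6. With MNA against AF, 1 male-biased gene, Elovl3, was upregulated (2.93 to 11.5 FPKM, limma, adjusted p = 0.940) and 0 were downregulated among 10 tested, beside 1.03% upregulated among all tested genes. This count rested on MNA replicate 1: without that library 6 of 11 male-biased genes were upregulated, beside 148 of 12181 tested genes, with a median log2 ratio of 1.13, and without AF replicate 3 none of 10. Of 9 tested female-biased genes 1, Acot3, was upregulated with MNA against AF (4.38 to 9.88 FPKM), with a median log2 ratio of 0.28. Without MNA replicate 1, 1 was upregulated and 1 downregulated and the median turned to -0.43, and without AF replicate 3, 2 of 10 were upregulated. Cyp2d9 itself gave a log2 ratio of 0.25 against AF without MNA replicate 1 (limma, adjusted p = 0.923).

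**Figure D5:**
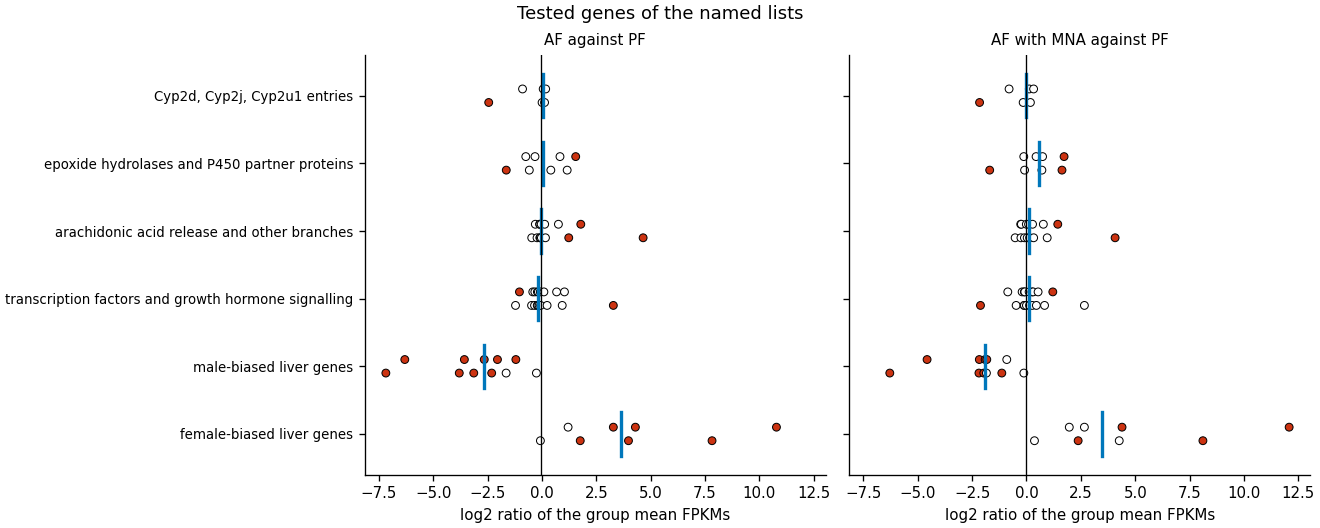
log2 ratio of the group mean FPKMs (horizontal axis) of each tested gene of the named lists, for AF and for AF with MNA, each against PF; filled points passed the threshold, the blue bar is the median of the list and the vertical line the median of all tested genes. Male-biased genes lie to the left and all but 1 of the female-biased genes to the right, while the members lie around 0 except Cyp2u1 and Cyp2d9.

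Markers of other liver cells were compared beside these results, since in whole liver fewer cells of a type and less RNA per cell cannot be told apart. The summed FPKM of the 6 sinusoidal endothelial markers was 24.02 to 28.5 in PF, 28.9 to 40.2 in AF and 34.4 to 39.2 with MNA, so that all alcohol-fed libraries lay above PF. For the 6 cholangiocyte markers the sum was 3.29 to 4.36 in PF, 4.87 to 9.13 in AF and 3.34 to 6.38 with MNA. Most of this sum was Spp1 alone, at 2.09 to 2.97 FPKM in PF and 3.39 to 6.66 FPKM in AF. Sox9 read 0.68 to 0.92 FPKM in PF and 0.94 to 1.39 FPKM in AF, while Krt19, Krt7, Epcam and Cftr did not separate PF from AF. The sums of the hepatocyte, the 6 found Kupffer cell and macrophage, and the 7 stellate cell markers overlapped between PF and AF. For the 7 neutrophil and lymphocyte markers the sum was 0.64 to 0.98 in PF, 0.92 to 1.68 in AF and 0.47 to 0.78 with MNA, and S100a8, a neutrophil marker, read 0 to 0.28 FPKM in PF and 0.46 to 0.92 FPKM in AF without overlap. The part of these markers in the lower Cyp2u1 and Cyp2d9 levels was not tested.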

How the data were processed

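Ribosomal RNA-depleted, strand-keeping, paired-end libraries of liver RNA, 3 per group, were analysed as deposited. Gene and lncRNA levels are FPKM values that the authors computed with StringTie, listed as 1.3.4 in the submitters' processing notes beside cutadapt 1.9, FastQC, HISAT2, edgeR and TopHat. The gene FPKM is rounded to 2 decimals in the deposited table. The authors' lncRNA table also gives each transcript's coverage signal, 5.84 to 8.30 reads per base for 1 FPKM. The circRNA table holds back-splice junction read counts as deposited by the authors, and a normalized signal, and the constant between these 2 gave the total reads of a library. Genes have no read numbers, so precision rests on the spread between libraries. The build was taken as GRCm38, since 78892 of 79269 known transcript identifiers were found in GENCODE M21. Sequences were read from GENCODE transcripts. Groups and replicate numbers came from the labels.

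Entries with a known transcript, a name and a mean FPKM of 0.5 or more in the compared libraries were fitted with limma 3.58.1 (lmFit, eBayes with trend, two-sided) on log2(FPKM + 1), with Benjamini-Hochberg adjustment over all tested entries; log2 ratios are of group mean FPKMs. With 3 libraries against 3 the smallest exact permutation p is 0.1, so no permutation test was used. The fit was tested on simulated data. R 4.3.3, Python 3.11.15, pandas 2.3.3, numpy 2.4.6 and matplotlib 3.10.9 were used. The members, gene lists and tests were chosen with earlier results of these data known. Named were all members, other Cyp2d and Cyp2j entries, the 3 genes most like each member, and of each list the genes past the threshold, at most 5 by size, of which 1 is not reported here; the genes next to each cluster were added after their values were seen. The alternatives were another pseudocount, scaling, filters, fits and entries, and each library left out. The lists and other entries without AF replicate 3 or MNA replicate 1 were added after seeing the data.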

Additional observations from a re-analysis of the deposited data

How the results depend on the processing

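Over 16 alternatives for each comparison, the members' log2 ratios kept their direction and their side of the threshold in 280 of 288 cases. Cyp2u1 against PF passed the threshold in all 16. Its log2 ratios of the means lay between -2.62 and -2.16 in AF and between -2.40 and -1.87 with MNA. With the fitted limma coefficient in place of the ratio, the values were -2.03 and -1.84. The adjusted p of Cyp2u1 from limma was under 0.05 in 7 and 3 of the 16, with ranges of 0.0187 to 0.291 and 0.0337 to 0.288. The direction turned, for values that passed no threshold, only when a library was left out: AF against PF ranged from -0.049 to 0.15 for Cyp2d26, from -0.083 to 0.075 for Cyp2j5 and from -0.036 to 0.34 for Cyp2j6, and AF with MNA against AF from -0.037 to 0.25 for Cyp2d9. The members past the threshold in AF against PF numbered 1 to 2 with a library left out, 2 without AF replicate 2, where Cyp2d9 joined. The counts of all tested genes, 527, 242 and 477 for AF against PF, AF with MNA against AF and AF with MNA against PF, became 1183, 676 and 1105 with every gene above 0, 265, 81 and 228 with the minimum mean at 2 FPKM, 249, 99 and 229 with the fitted limma coefficient in place of the ratio, 335, 106 and 246 without moderation and with a library-size covariate, and 993, 572 and 837 with all gene entries; the first 2 and the last change which entries are tested, and for the other 2 the cause was not tested. With a library left out they were 516 to 764, 211 to 367 and 467 to 545, the highest of the first 2 without AF replicate 3.

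The replicate numbers only name samples, since the labels tie them to no animal and the deviations of same-numbered libraries from their group means correlated between -0.079 and 0.062 (9 pairs, of which 2 correlated best with their own number). With the number as a replicate block, 562, 260 and 488 genes passed, and the same 1, 0 and 1 members; the adjusted p of Cyp2u1 from limma became 0.101 in AF and 0.260 with MNA against PF. Low levels limit Cyp2j9, 4930534D22Rik and the Cyp2d22 row, which stayed at or under 3.16 FPKM.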

Other observations

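Circular RNAs, which are made by joining the end of an exon back to an earlier start, were listed for the Cyp2j members and for no Cyp2d gene or Cyp2u1. A single-exon circle of Cyp2j5 (chr4:96641272-96641448) had 7, 3 and 8 back-splice reads in PF, 4, 8 and 8 in AF and 3, 19 and 3 with MNA, so that 1 MNA library held most of its group's reads. A Cyp2j9 circle of 7 exons (chr4:96571935-96585991) had 3, 2 and 2 reads in PF, 4, 4 and 0 in AF and 9, 2 and 2 with MNA. A second Cyp2j5 circle and a Cyp2j6 circle were each seen with 1 read in 1 library. With counts this low no difference between groups was detectable, and none was tested.

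Genes beside the Cyp2d and Cyp2j clusters give a local comparison. Tcf20, at one end of the Cyp2d cluster, lay between 8.68 and 10.51 FPKM in all 9 libraries. Ndufa6, at the other end, spread from 17.65 to 77.37 FPKM with overlapping groups. Hook1, below the Cyp2j cluster, read 7.55 to 8.60 FPKM in PF and 2.80 to 6.37 FPKM in AF without overlap, but its log2 ratio of -0.74 missed the threshold (limma, adjusted p = 0.381). Gm12696, above the Cyp2j cluster, read 4.76 to 5.53 FPKM in PF and 5.53 to 6.79 FPKM in AF, with the groups meeting at 5.53 FPKM (limma, adjusted p = 0.593).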
